A study of Mus musculus with 8 samples.

Results

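Marker genes of leukocytes, the immune cells that enter and live in islets, were read from whole-islet RNA of mice with and without Notch activation in β cells. The 43 genes were chosen by symbol from a table of 32531 gene symbols, and all 43 had a row. They comprise 6 pan-leukocyte genes, 17 of macrophages and monocytes, 4 of dendritic cells, 7 of T cells, 4 of NK and cytotoxic cells, and 5 of B cells and plasma cells. Whether RNA of these cell classes was higher or lower in Notch-active islets was asked class by class. Transcript length was then set beside the fold changes of the tested genes.

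Islets came from 4 controls and 4 β-tetO-NICD mice on a mixed C57BL/6J, 129X1/SvJ and BALB/c background. The β-tetO-NICD libraries are called NICD 1, 2, 4 and 5 after their columns. All 8 mice carried RIP-Cre+ and Rosa26-rtTA+ and received doxycycline (Dox) in drinking water for 8 weeks. β-tetO-NICD mice were tetO_NICD+ and controls were not, so that Dox induced the Notch1 intracellular domain (NICD) in the former only. RIP-Cre is driven by an insulin promoter, so the leukocytes themselves are not the cells the transgene was aimed at, and the labels give no age. Islets were lysed whole, and no cell type was sorted out. In such bulk RNA, fewer cells of a type and less RNA per cell cannot be told apart.

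Resident macrophages are the main leukocytes of the healthy mouse islet. They sit beside capillaries, take up β cell granules and present antigen, and they carry receptors such as Csf1r, the receptor for the macrophage growth factor CSF1. T and B cells are scarce in the islet unless autoimmunity draws them in. T cells are known by the CD3 chains that pass on the signal of their receptor, and B cells by the Cd79a and Cd79b chains that do so for theirs.

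Libraries held between 21701223 and 26413146 counts, and levels are given in CPM, counts scaled to TMM-normalized library sizes so that libraries can be compared. A floor of 3 counts was 0.114 to 0.138 CPM of the raw totals and covers counting error only. Notch1 had 1051 to 1562 counts in controls and 11388 to 36628 in NICD libraries, which matches the labels. The insulin genes took 6.16% to 17.3% of the counts. NICD 1 stood apart, with 20.3% of its counts in 20 acinar genes against 7.09% to 14.1% in the other 7 libraries. NICD 4 and NICD 5 match the group by name but no single mouse. The methods describe the use of male islets for gene expression. Eif2s3y, a Y-linked gene, was counted 1300 times in control 2, 1527 times in control 4 and 1465 times in NICD 5, and once or not at all in the other 5 libraries.

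RNA of the marker genes was a small share of every library. The 43 genes took 0.0422% to 0.0597% of the counts in controls and 0.0540% to 0.0814% in NICD libraries. Of the 43, 33 had at least 10 counts in at least 4 libraries and were tested. The other 10, of T cells, NK cells and B cells, are described by their counts, and since a gene could pass this minimum through its higher group alone, the counts over the 33 do not speak for all 43. In Notch-active islets, 4 genes rose at an adjusted p under 0.05 (edgeR's quasi-likelihood test), against 4.19% of the 15082 genes tested. These were Cd14, Lck, Coro1a and Cd52. No member fell, against 2.57% of all tested genes, and none had an unadjusted p under 0.05 in that direction, against 15.0%, whereas 14 did for higher expression, against 16.6%. Among the 14, Cd209a and Cd79b were tested because of their NICD libraries and are no support for a difference. DESeq2 and limma-voom called no member lower either. DESeq2 called 11 of the 33 higher, against 9.91% of all tested genes. Without NICD 1, edgeR also called 11, not all the same, against 16.3%. Cd209a was in both sets of 11. The fit without NICD 1 kept only NICD libraries whose relative levels fell with transcript length, as described below. Its count is therefore no separate support for a difference. The median log2 fold change was 0.53 over the 33 genes and 0.00 over all tested genes. It was positive for 25 of the 33, Cd209a and Cd79b among them, and 50.1% of all tested genes had a positive value. In 7 of the 33 genes all 4 NICD libraries lay above the highest control, against 8.22% of all tested genes (1 of the 7, Cd209a, was tested because of its NICD libraries), and in none did they all lie below the lowest, against 7.92%.

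**Figure D1:**
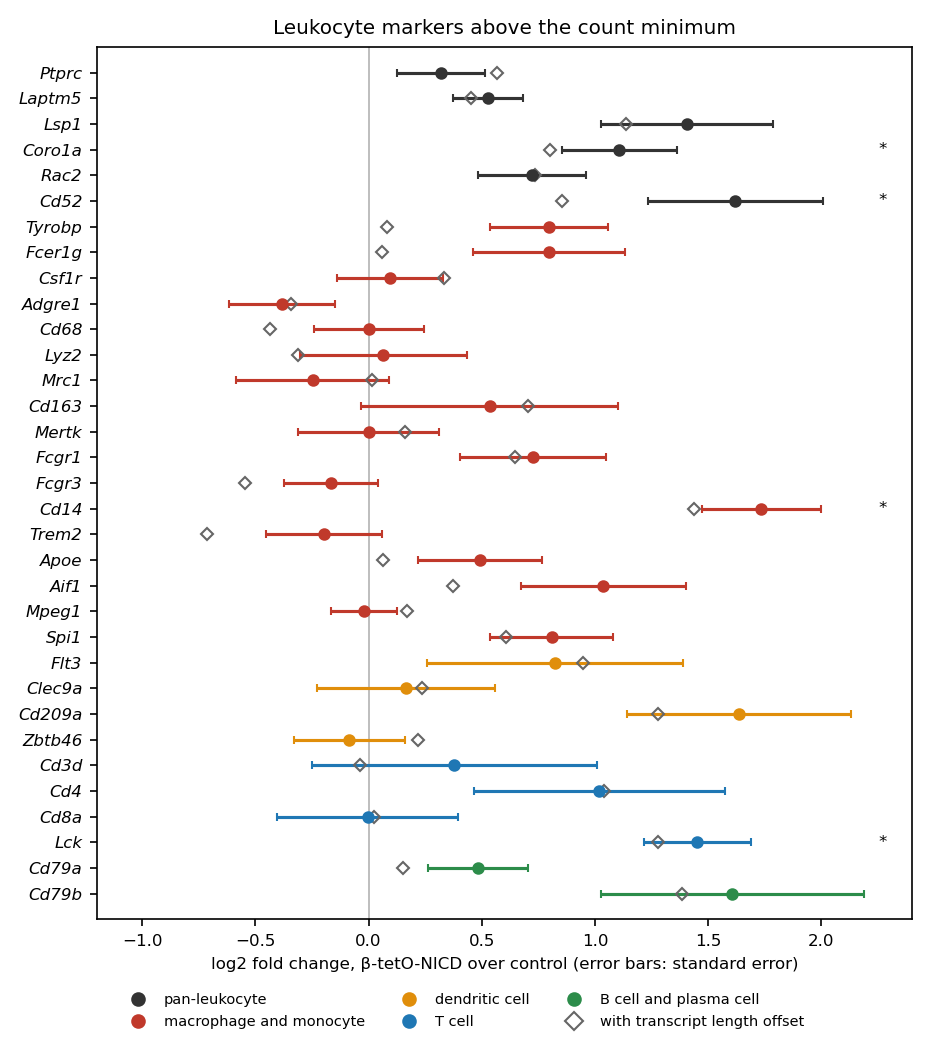
Log2 fold change (x axis, β-tetO-NICD over control) of the 33 tested leukocyte markers, with circles coloured by cell class, bars for the standard error, asterisks at an adjusted p under 0.05 and open diamonds for the value with a transcript length offset. The 6 pan-leukocyte genes all lie to the right of 0, whereas the 17 macrophage and monocyte genes lie on both sides of it, from −0.38 to 1.73.

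Promoter windows are shown for 4 genes on which the account turns, namely Coro1a and Lck, which rose, Mpeg1, a macrophage gene that did not pass the threshold, and Cd79a, a B cell gene with many counts in every library. Each window runs from 250 bases before to 50 after an annotated start and is given 5′ to 3′ on the strand of the gene, from RefSeq on GRCm38.p6. Capitals mark GAGGAA (or its reverse complement TTCCTC), the core of sites bound by PU.1, and TGGGAA (or TTCCCA), the core bound by RBPJ, the DNA-binding partner of NICD. Lck, whose transcription is known to start from a distal or a proximal promoter, is shown with its 2 windows. The distal one is chr4:129573592-129573891 (minus strand) and the proximal one is chr4:129558323-129558622 (minus strand). The others are chr7:126704767-126705066 for Coro1a (minus strand), chr19:12460520-12460819 for Mpeg1 (plus strand) and chr7:24897247-24897546 for Cd79a (plus strand). Coro1a has another window, chr7:126704171-126704470 (minus strand), which is not printed and holds neither motif.
Lck distal: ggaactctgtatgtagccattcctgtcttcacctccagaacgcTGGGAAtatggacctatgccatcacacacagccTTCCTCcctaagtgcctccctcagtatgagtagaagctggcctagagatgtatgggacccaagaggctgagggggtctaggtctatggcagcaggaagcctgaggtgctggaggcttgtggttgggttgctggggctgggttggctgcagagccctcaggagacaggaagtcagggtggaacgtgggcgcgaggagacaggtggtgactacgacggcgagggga
Lck proximal: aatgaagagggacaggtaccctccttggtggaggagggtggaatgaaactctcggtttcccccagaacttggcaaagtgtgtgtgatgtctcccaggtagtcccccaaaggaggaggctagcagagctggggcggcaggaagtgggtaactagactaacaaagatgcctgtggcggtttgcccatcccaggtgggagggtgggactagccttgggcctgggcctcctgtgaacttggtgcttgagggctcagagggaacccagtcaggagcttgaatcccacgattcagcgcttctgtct
Coro1a: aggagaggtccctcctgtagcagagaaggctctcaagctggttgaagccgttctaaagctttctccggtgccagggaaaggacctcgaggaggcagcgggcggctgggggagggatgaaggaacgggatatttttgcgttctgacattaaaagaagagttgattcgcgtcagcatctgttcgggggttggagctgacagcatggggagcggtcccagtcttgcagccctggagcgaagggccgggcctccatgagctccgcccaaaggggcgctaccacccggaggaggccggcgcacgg
Mpeg1: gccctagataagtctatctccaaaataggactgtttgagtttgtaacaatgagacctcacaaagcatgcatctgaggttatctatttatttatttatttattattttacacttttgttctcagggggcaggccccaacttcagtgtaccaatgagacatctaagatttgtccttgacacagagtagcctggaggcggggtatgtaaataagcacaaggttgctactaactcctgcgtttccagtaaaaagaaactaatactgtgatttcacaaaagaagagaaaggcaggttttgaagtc
Cd79a: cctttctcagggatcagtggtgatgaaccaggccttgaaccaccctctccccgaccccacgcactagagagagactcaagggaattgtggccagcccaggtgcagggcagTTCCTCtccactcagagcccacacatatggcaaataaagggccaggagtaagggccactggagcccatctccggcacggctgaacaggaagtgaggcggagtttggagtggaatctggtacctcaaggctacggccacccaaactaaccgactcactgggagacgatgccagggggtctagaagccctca
The distal Lck window held 1 copy of each motif, the Cd79a window 1 GAGGAA, and the other 3 windows neither. Windows were found for 30 of the 43 genes, 36 windows in all. GAGGAA was in 47.2% of these 36 and in 28.3% of all 32851 windows, and TGGGAA in 22.2% and 25.6%. These are matches of letters only. The count table gives 1 value per symbol and does not separate RNA started at the distal Lck window from RNA started at the proximal one.

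All 6 pan-leukocyte genes had a positive log2 fold change, with a median of 0.91, against 50.1% of all tested genes. Of the 6, 2 rose, against 4.19% of all tested genes. Coro1a encodes an actin-binding protein of leukocytes. Its level was 5.48, 8.69, 7.20 and 6.61 CPM in controls 1 to 4, and 8.88, 18.1, 14.9 and 18.5 CPM in the 4 NICD libraries. NICD 1 lay just above control 2 and the other 3 lay far above every control. The mean was 6.996 ± 1.34 CPM in controls (SD, n = 4) and 15.1 ± 4.45 CPM in Notch-active islets (SD, n = 4), a log2 fold change of 1.11 ± 0.25 (SE) with an adjusted p of 0.0320. The call passed without NICD 1 (adjusted p = 0.00373) and was lost when any of the other 7 libraries was left out, with adjusted p values up to 0.109. Coro1a (chromosome 7, 126699773 to 126707787 on GRCm38, minus strand) overlaps Bola2 on the opposite strand by 26 bases. Bola2 had 347, 343, 546 and 353 counts in controls and 346, 833, 789 and 1265 in NICD libraries, and its part in the Coro1a counts was not tested.

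Cd52, a short glycoprotein on the surface of lymphocytes and monocytes, had 2.30, 2.49, 4.35 and 2.27 CPM in controls and 3.70, 11.2, 7.73 and 12.5 CPM in the 4 NICD libraries. NICD 1 lay below control 3, so the groups overlapped, and the other 3 were higher than every control. Its mean rose from 2.85 ± 1.002 to 8.80 ± 3.95 CPM (SD, n = 4 each), a log2 fold change of 1.62 ± 0.39 (SE) with an adjusted p of 0.0379. The call held without NICD 1 or control 3 (adjusted p = 0.00414 and 0.0335), and was lost when any of the other 6 was left out, with adjusted p values up to 0.122. It was also lost with limma-voom (adjusted p = 0.0544) and with Eif2s3y counts as a covariate (adjusted p = 0.0602). Cd52 (chromosome 4, 134082448 to 134095082, minus strand) shares 10057 bases of its span with Crybg2 on the other strand. This is an overlap of gene spans with their introns, and the longest Cd52 transcript has 514 nucleotides. The strand setting of the counting is not given in the sources used here, and whether any reads were shared was not tested.

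Laptm5, a lysosomal membrane protein that lowers antigen receptor levels, had 13.2, 14.2, 12.7 and 12.0 CPM in controls and 14.8, 19.8, 19.1 and 21.2 CPM in NICD libraries. The groups did not overlap, and the log2 fold change was 0.53 ± 0.15 (SE) with an adjusted p of 0.0671. Rac2, a small GTPase of blood cells, did not overlap either. It had 2.07, 3.59, 2.21 and 2.76 CPM in controls and 4.80, 4.36, 4.41 and 3.98 CPM in NICD libraries (log2 fold change 0.72, standard error 0.24, adjusted p = 0.0866). For Rac2, in contrast to Coro1a and Cd52, NICD 1 was the highest of its group.

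Lsp1, an actin-binding protein of migrating leukocytes, had 1.98, 4.94, 2.37 and 2.07 CPM in controls and 4.04, 9.43, 6.83 and 9.87 CPM in NICD libraries. Control 2 lay above NICD 1, and the log2 fold change of 1.41 (standard error 0.38) had an adjusted p of 0.0545. Without control 2 that adjusted p was 0.0283, and without NICD 1 it was 0.00987. Ptprc encodes CD45, the phosphatase carried by nearly all leukocytes. It had 5.07 to 6.54 CPM in controls and 5.89 to 8.50 CPM in NICD libraries, which overlapped, and the log2 fold change was 0.32 ± 0.19 (SE) with an adjusted p of 0.269. The summed level of the 6 genes was 30.1 to 40.5 CPM in controls and 44.7 to 72.0 CPM in NICD libraries, with no overlap.

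**Figure D2:**
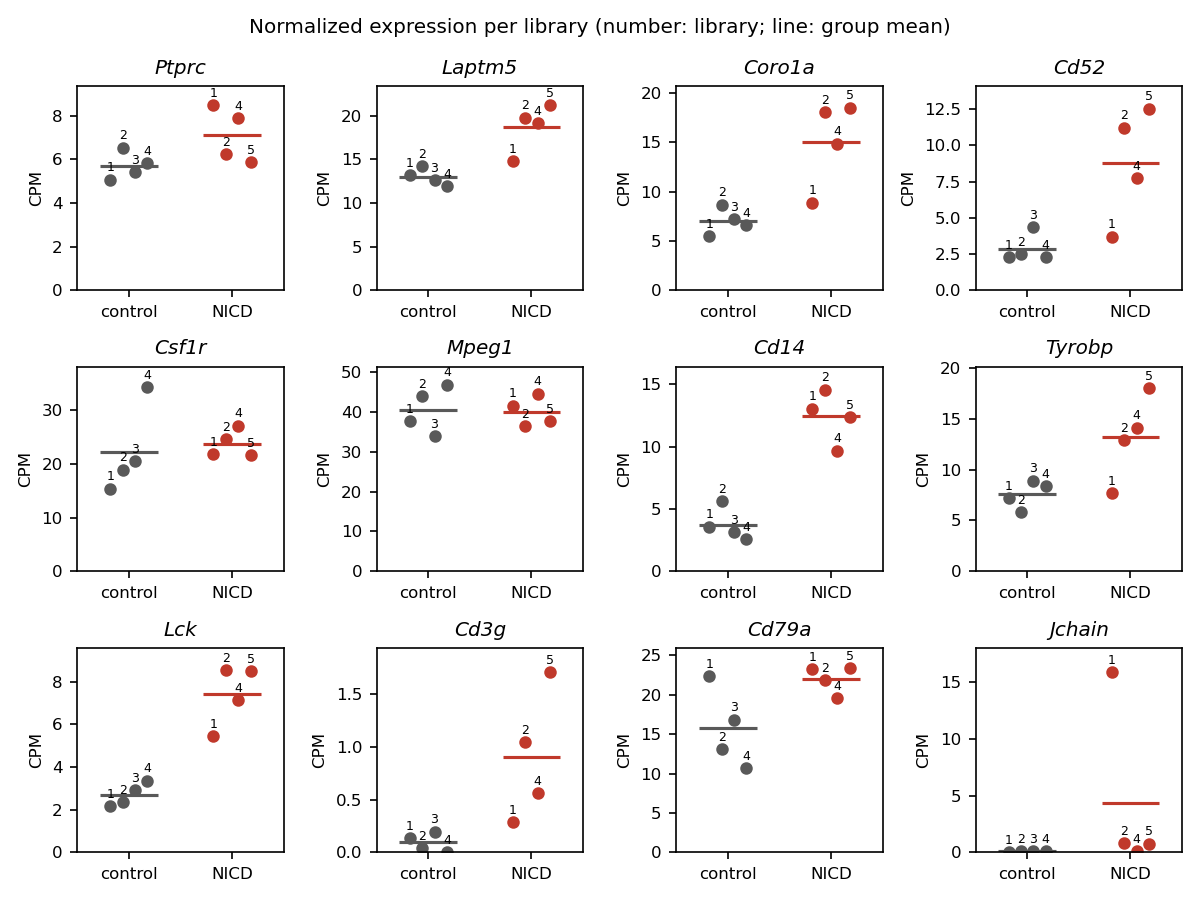
Normalized expression in CPM (y axes, from 0) of 12 leukocyte markers in 4 control (grey) and 4 β-tetO-NICD (red) libraries, with the library number above each point and a line at the group mean. Cd14 and Lck are higher in all 4 NICD libraries, Mpeg1 and Csf1r overlap, NICD 1 is the lowest of its group for Coro1a, Cd52 and Tyrobp, and it is the highest for Jchain.

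Cd14, a surface receptor that hands bacterial lipopolysaccharide to Toll-like receptor 4, had the highest log2 fold change of the 33 tested genes. It had 3.59, 5.61, 3.12 and 2.60 CPM in controls and 13.1, 14.6, 9.69 and 12.4 CPM in the 4 NICD libraries. Every NICD library, NICD 1 among them, was well above the highest control. The mean rose from 3.73 ± 1.32 to 12.4 ± 2.04 CPM (SD, n = 4 each), a log2 fold change of 1.73 ± 0.26 (SE) with an adjusted p of 0.00543. The adjusted p stayed under 0.05 in all 8 fits that each left out 1 library, with values up to 0.0258. Cd14 lies on chromosome 18 of GRCm38 from 36725067 to 36726798, on the minus strand. Cell types other than monocytes and macrophages can express it, and which cells made it here was not tested.

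Apart from Cd14, none of the 17 macrophage and monocyte genes rose or fell at the threshold in edgeR's test over the 8 libraries. DESeq2 also called Aif1, Spi1 and Tyrobp higher, and edgeR without NICD 1 called these and Fcer1g. The median log2 fold change of the class was 0.09, with 11 positive and 6 negative values, where 50.1% of all tested genes were positive. Mpeg1, which encodes the pore-forming protein perforin-2 of macrophages, had 37.7, 43.9, 33.8 and 46.8 CPM in controls and 41.6, 36.3, 44.5 and 37.6 CPM in NICD libraries. The groups lay across each other, and the log2 fold change was −0.02 ± 0.15 (SE) with an adjusted p of 0.936. Csf1r had 15.3, 18.9, 20.5 and 34.2 CPM in controls and 21.7, 24.6, 27.04 and 21.6 CPM in NICD libraries (log2 fold change 0.09, standard error 0.24, adjusted p = 0.796). Control 4 was the highest of the 8 libraries, and the other 3 controls were the lowest.

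Adgre1, the gene of the macrophage surface protein F4/80, had the lowest log2 fold change of the tested members. It had 7.05, 6.88, 6.44 and 6.69 CPM in controls and 7.36, 3.88, 5.51 and 3.98 CPM in NICD libraries. NICD 1 was the highest of all 8 and the other 3 lay below every control (log2 fold change −0.38, standard error 0.23, adjusted p = 0.270). The lysosomal protein gene Cd68, the apoptotic cell receptor gene Mertk and the lysozyme gene Lyz2 had log2 fold changes of 0.00, 0.00 and 0.07. Lyz2 has a close copy, Lyz1, and reads may have been split between them. The mannose receptor gene Mrc1, the Fc receptor gene Fcgr3 and the lipid receptor gene Trem2 had log2 fold changes of −0.25, −0.17 and −0.20. The standard errors of these 6 genes ran from 0.21 to 0.37, and none of these values was larger than its standard error.

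Several macrophage genes had positive values that did not pass the threshold. Spi1 encodes PU.1, the transcription factor that directs macrophage and B cell development. It had 1.52, 2.11, 2.02 and 2.07 CPM in controls and 2.47, 4.32, 4.05 and 2.67 CPM in NICD libraries, with no overlap (log2 fold change 0.81, standard error 0.27, adjusted p = 0.0904). Aif1, the calcium-binding protein IBA1 of activated macrophages, had a log2 fold change of 1.04 ± 0.36 (SE) with an adjusted p of 0.101. Its level was 2.81 to 3.95 CPM in controls, 2.71 CPM in NICD 1, and 8.47, 5.67 and 10.1 CPM in NICD 2, 4 and 5. Tyrobp and Fcer1g, the adaptor chains that pass on the signals of activating receptors, both had log2 fold changes of 0.80 (with adjusted p values of 0.0857 and 0.143). In both genes NICD 1 was the lowest of its group and lay among the controls. The scavenger receptor gene Cd163 and the high-affinity Fc receptor gene Fcgr1 had log2 fold changes of 0.54 and 0.73 (with adjusted p values of 0.519 and 0.157).

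Apoe, a lipid carrier protein that macrophages and other cells secrete, had the most RNA of the 43 genes, with 239 CPM per kilobase of transcript over the 8 libraries. It had 355, 323, 248 and 194 CPM in controls and 283, 338, 357 and 597 CPM in NICD libraries (log2 fold change 0.49, standard error 0.27, adjusted p = 0.232). The groups overlapped, with NICD 5 far above and NICD 4 just above the highest control. Apoe dominated the sum over the class, which was 344 to 494 CPM in controls and 449 to 788 CPM in NICD libraries. Without Apoe the sum was 127 to 171 CPM and 155 to 191 CPM. Either way the ranges overlapped.

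Dendritic cell genes differed among themselves, and none of the 4 passed the threshold in edgeR's test over the 8 libraries. Zbtb46, a transcription factor of classical dendritic cells and of endothelium, had 7.79, 7.68, 4.47 and 6.69 CPM in controls and 7.60, 5.28, 4.91 and 7.35 CPM in NICD libraries (log2 fold change −0.08, standard error 0.24, adjusted p = 0.826). Clec9a, the dead-cell receptor of cross-presenting dendritic cells, had 2.07, 1.90, 1.503 and 0.933 CPM in controls and 0.807, 1.96, 1.79 and 2.62 CPM in NICD libraries (log2 fold change 0.16, standard error 0.39, adjusted p = 0.786). In both genes the groups lay across each other.

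Cd209a, a lectin of monocyte-derived dendritic cells, had 0.277, 0.464, 0.316 and 0.0811 CPM in controls and 0.475, 1.05, 1.13 and 0.906 CPM in NICD libraries. In CPM the groups did not overlap, but NICD 1, with 10 counts, was close to control 2, with 11, and the log2 fold change of 1.64 had a standard error of 0.49 (adjusted p = 0.0698). DESeq2 called it higher (adjusted p = 0.0343), and so did edgeR without NICD 1 (adjusted p = 0.0179). Only 1 control reached 10 counts, so that Cd209a was tested because of its NICD libraries, and neither these calls nor the lack of overlap are support for a difference. Flt3, the receptor of the dendritic cell growth factor, ranged from 0.406 to 1.65 CPM in controls and from 0.522 to 2.09 CPM in NICD libraries (log2 fold change 0.82, standard error 0.57, adjusted p = 0.319). Control 2 stood far above the other controls.

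**Figure D3:**
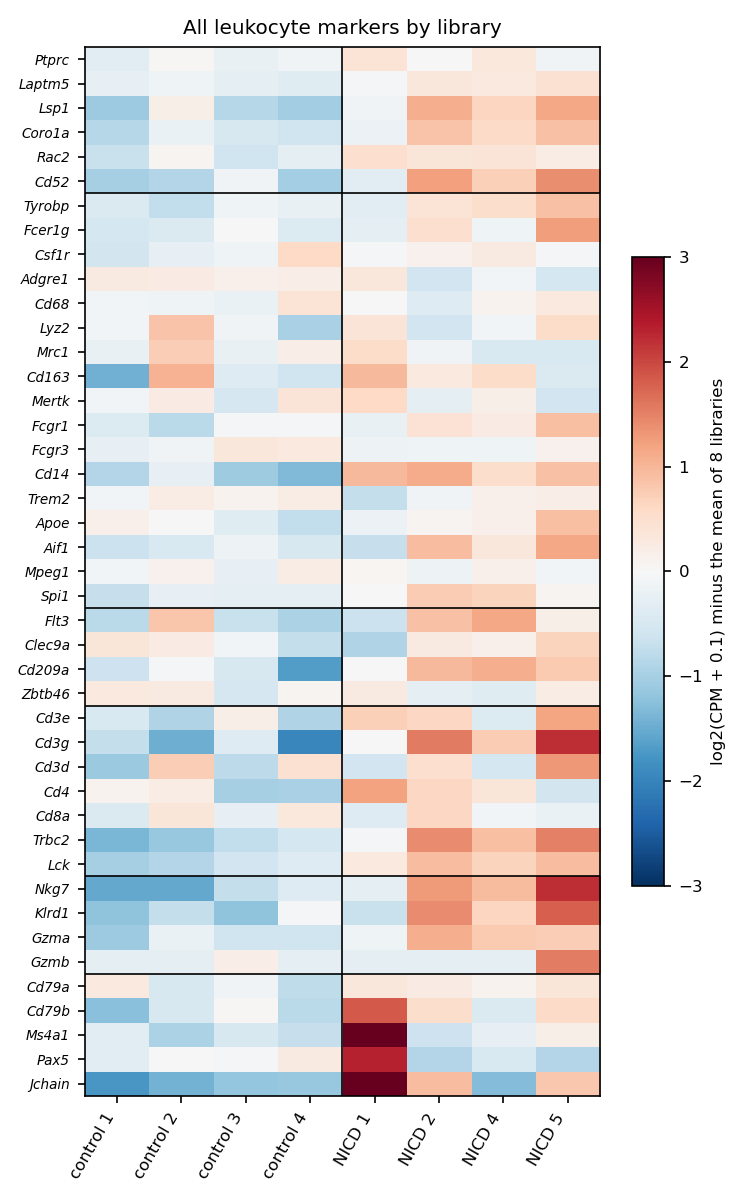
Level of each of the 43 genes (y axis, classes divided by lines) in each of the 8 libraries (x axis), as log2(CPM + 0.1) minus the mean over the 8 libraries, with colours saturating at −3 and 3. The rows of Coro1a, Cd52, Laptm5, Lck, Cd3g, Trbc2, Nkg7, Klrd1 and Gzma are blue in all controls and red in NICD 2, 4 and 5, most macrophage rows are pale, and the B cell rows other than Cd79a are red in NICD 1.

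Among T cell genes, Lck rose. Lck is the kinase that starts signalling from the T cell receptor. Its promoter windows are printed above, and the part of their motifs in its level was not tested. Its level was 2.17, 2.36, 2.93 and 3.37 CPM in controls and 5.46, 8.55, 7.13 and 8.51 CPM in the 4 NICD libraries. All 4 NICD libraries lay well above the highest control. The mean rose from 2.71 ± 0.546 to 7.41 ± 1.46 CPM (SD, n = 4 each), a log2 fold change of 1.45 ± 0.24 (SE) with an adjusted p of 0.00768. The adjusted p stayed under 0.05 in all 8 fits that each left out 1 library, with values up to 0.0353. It was 0.116 over the 5 libraries without Eif2s3y counts, where the log2 fold change was 1.47.

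The other T cell genes were scarcer. Per kilobase of transcript and averaged over the 8 libraries, Lck stood at 2.32 CPM, whereas the CD3 chain genes Cd3d, Cd3e and Cd3g stood at 0.455, 0.138 and 0.487 CPM and the receptor constant region gene Trbc2 at 0.795 CPM. Among controls alone Lck stood at 1.24 CPM per kilobase and the 3 CD3 genes at 0.0637 to 0.392. The coreceptor genes Cd4 and Cd8a stood at 0.157 and 0.176 CPM per kilobase over the 8 libraries. Which cells gave the Lck RNA was not tested. Trbc2 has a close copy, Trbc1, so its counts are uncertain.

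Cd3e, Cd3g and Trbc2 did not reach the count minimum, and they were near the floor in controls. Cd3g had 3, 1, 5 and 0 counts in controls and 6, 24, 17 and 34 in the 4 NICD libraries. Trbc2 had 2, 3, 5 and 6 counts in controls and 8, 28, 25 and 26 in NICD libraries. In both genes NICD 1 was next to the controls and the other 3 were clearly higher. Cd3e had at most 5 counts in controls and 7, 7, 3 and 10 in NICD libraries. A fit without the count minimum gave adjusted p values of 0.0433 for Cd3g, 0.0239 for Trbc2 and 0.184 for Cd3e, and called 2.88% of its 21879 genes higher.

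Cd3d was unlike its partners. It had 0.230, 1.10, 0.316 and 0.892 CPM in controls and 0.380, 0.916, 0.398 and 1.66 CPM in NICD libraries, with groups that lay across each other (log2 fold change 0.38, standard error 0.63, adjusted p = 0.690). The 3 libraries with Eif2s3y counts, controls 2 and 4 and NICD 5, were among the 4 with the most Cd3d. Cd4 had 0.158 to 0.506 CPM in controls and 0.252 to 1.09 CPM in NICD libraries (log2 fold change 1.02, standard error 0.55, adjusted p = 0.220). Cd8a had a log2 fold change of 0.00 ± 0.40 (SE) with an adjusted p of 0.995. The sum over the 7 T cell genes was 3.55 to 5.39 CPM in controls and 8.31 to 14.4 CPM in NICD libraries, and without Lck it was 1.38 to 2.53 CPM and 2.85 to 5.89 CPM. Neither pair of ranges overlapped.

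The 4 NK and cytotoxic genes were near or under the floor in every control and none reached the count minimum. Nkg7, a cytotoxic granule protein, had 0, 0, 2 and 3 counts in controls and 3, 14, 14 and 25 in the 4 NICD libraries. Klrd1, the CD94 chain of NK receptors, had 0, 1, 0 and 3 counts in controls and 1, 12, 8 and 14 in NICD libraries. NICD 1 lay with the controls for both genes, and NICD 2, 4 and 5 lay above. Gzma, a granzyme, had at most 2 counts in controls and 2, 8, 8 and 5 in NICD libraries. Gzmb, another granzyme, had 1 count in 1 control and 5 counts in NICD 5 and was at 0 elsewhere. The fit without the count minimum gave Nkg7 an adjusted p of 0.0508, and the values of the other 3 ran from 0.0953 to 0.454.

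**Figure D4:**
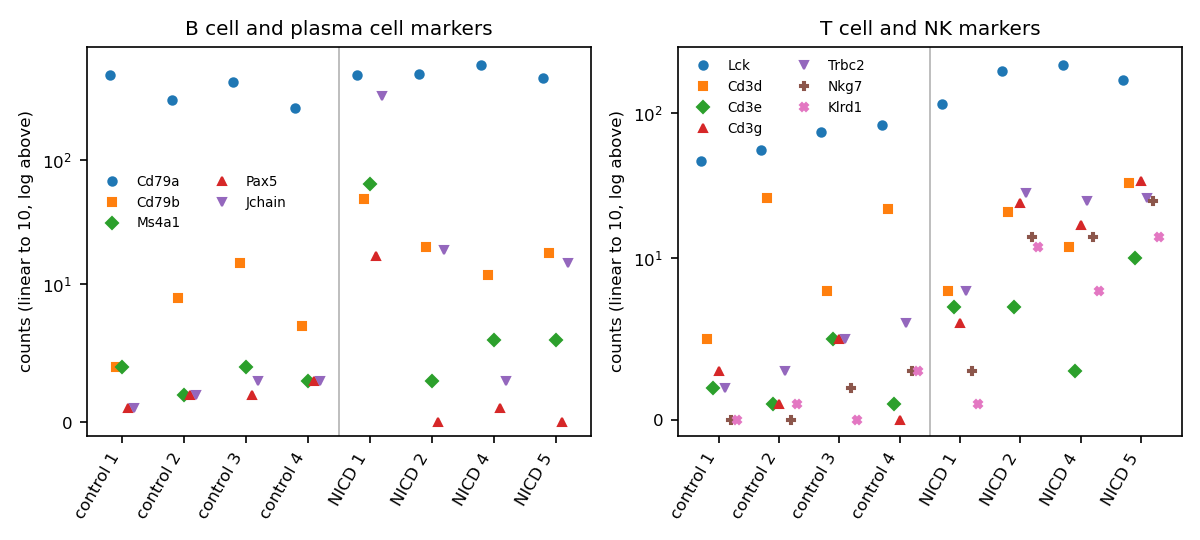
Counts (y axes, linear up to 10 and logarithmic above) of B cell and plasma cell markers (left) and of T cell and NK markers (right) in each of the 8 libraries (x axes, marks shifted sideways for legibility). Cd79a holds at 264 to 590 counts throughout while Jchain, Ms4a1, Cd79b and Pax5 peak in NICD 1, and Lck, Cd3g, Trbc2, Nkg7 and Klrd1 are highest in NICD 2, 4 and 5.

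B cell genes other than Cd79a were highest in NICD 1. Jchain, which joins the units of secreted IgM and IgA and marks plasma cells, had 1, 2, 3 and 3 counts in controls and 334, 19, 3 and 15 in the 4 NICD libraries, so that NICD 2 and 5 were also above every control. Ms4a1, the gene of the B cell surface protein CD20, had 65 counts in NICD 1 and at most 6 in any other. Pax5, the transcription factor of B cell identity, had 17 counts in NICD 1 and at most 3 in any other. The same library had 1756 counts of the IgM heavy chain gene Ighm and 1089 of the light chain gene Igkc, against at most 190 and 124 elsewhere. Jchain passed the threshold in the fit without the count minimum (adjusted p = 0.0469), and Ms4a1 and Pax5 did not (0.125 and 0.509). This library also had the highest acinar share, and the part of tissue around the islets in these counts was not tested.

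Cd79b had 0.184, 0.380, 0.593 and 0.284 CPM in controls and 2.33, 0.873, 0.398 and 0.906 CPM in NICD libraries, again highest in NICD 1 (log2 fold change 1.61, standard error 0.58, adjusted p = 0.106). Cd79b was tested because of its NICD libraries, so its fold change is no support for a difference. Its partner Cd79a behaved otherwise. Cd79a had 22.4, 13.1, 16.8 and 10.7 CPM in controls and 23.3, 21.8, 19.6 and 23.4 CPM in NICD libraries, so that control 1 lay among the NICD libraries (log2 fold change 0.48, standard error 0.22, adjusted p = 0.163). Averaged over the 8 libraries, Cd79a stood at 13.0 CPM per kilobase, against 0.519 for Cd79b and 0.173 for Ms4a1. In controls the values were 10.8, 0.252 and 0.0446 CPM per kilobase. The B cell sum of 11.4 to 22.8 CPM in controls and 20.3 to 45.3 CPM in NICD libraries was therefore mostly Cd79a. Without Cd79a it was 0.461 to 0.949 CPM in controls and 22.1, 1.83, 0.730 and 1.96 CPM in the 4 NICD libraries, of which all but NICD 4 lay above the highest control.

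Transcript length moved with the fold changes across the whole table. Spearman's correlation, over the 14655 tested genes whose length is annotated, between the length of the longest basic transcript and the log2 fold change was −0.51. Over the 33 tested markers it was −0.36, between −0.46 and −0.17 with 1 library left out (−0.17 without NICD 5), and 0.0044 over the markers tested in the 5 libraries without Eif2s3y counts. Genes share their libraries and are not independent replicates, so no p value is given. Within libraries, the same correlation between length and the deviation from the 8-library mean was 0.44, 0.49 and 0.51 in controls 1, 2 and 4, and 0.48 in NICD 1. It was −0.18 in control 3 and −0.54, −0.36 and −0.55 in NICD 2, 4 and 5. NICD 1 thus had a length trend like that of controls 1, 2 and 4, and it was also the NICD library in which Coro1a, Cd52, Tyrobp, Fcer1g, Aif1 and Lck were lowest. Control 3, whose trend was negative, was the highest control for Cd52, Tyrobp, Fcer1g and Aif1, whereas control 2 was the highest for Coro1a and control 4 for Lck.

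**Figure D5:**
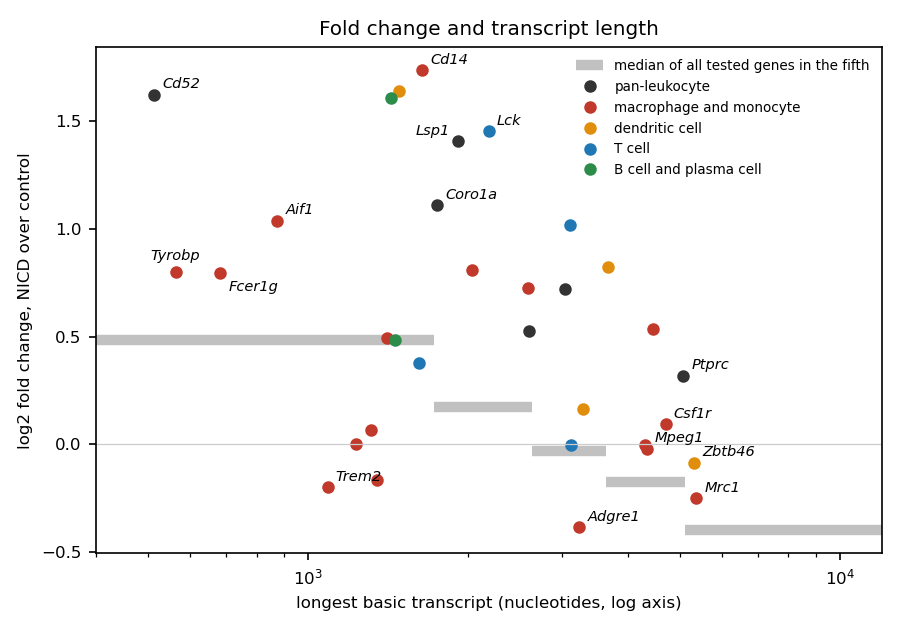
Log2 fold change (y axis, β-tetO-NICD over control) against the length of the longest basic transcript (x axis, nucleotides, log scale) for the 33 tested markers, coloured by class, with grey bars for the median of all tested genes in each of 5 bins of length. The grey medians step down from 0.48 to −0.40, and Cd14, Lck, Coro1a and Cd52 lie well above the bar of their own length.

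The shorter markers carried the higher fold changes. The median log2 fold change was 0.80 over the 21 tested markers shorter than 3094 nucleotides, the median of all tested genes, and 0.05 over the 12 longer ones. When each library's trend with length was entered as an offset in the fit, these medians were 0.45 and 0.23, and the correlation over the markers was 0.14. Tyrobp (564 nucleotides) had a log2 fold change of 0.08 with the offset, Fcer1g (683 nucleotides) 0.06 and Aif1 (875 nucleotides) 0.37, against 0.80, 0.80 and 1.04 without it. Apoe had 0.07 with the offset and 0.49 without. Trem2 had −0.71 with the offset (adjusted p = 0.0734) and −0.20 without. That offset used its longest basic transcript, of 1088 nucleotides, whereas its longest transcript in the comprehensive annotation has 4784. With the offset Lyz2 had −0.31, Cd68 −0.43, Mrc1 0.02 and Mertk 0.16.

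The 4 genes that rose also rose with the length offset. Their log2 fold changes were 1.44 for Cd14 (adjusted p = 0.0116), 1.28 for Lck (0.00467), 0.80 for Coro1a (0.0273) and 0.85 for Cd52 (0.0310). Laptm5 and Ptprc joined them to make 6 of the 33, with log2 fold changes of 0.45 (adjusted p = 0.0497) and 0.57 (adjusted p = 0.0438). With lengths from the comprehensive annotation Laptm5 lost the call (0.40, adjusted p = 0.0666) and Lsp1 gained it (adjusted p = 0.0477). Ptprc, at 5074 nucleotides the longest pan-leukocyte transcript, had a larger value with the offset than without. The offset called 6.01% of all tested genes higher. The source of the length trend was not tested.

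Genes outside the 43 that mark the same cells were counted for comparison. Of 21 further macrophage genes tested, 2 rose, the complement gene C1qa (log2 fold change 0.95, adjusted p = 0.0273) and the transcription factor gene Irf8 (1.34, adjusted p = 0.0193). Over these 21 genes 16 values were positive and 5 negative, the lowest that of Itgam (−1.15, adjusted p = 0.140). Among the genes of antigen presentation by MHC class II, 6 of 7 rose, and Ciita did not (log2 fold change −0.13, adjusted p = 0.856). Their invariant chain gene Cd74 went from 121 ± 40.7 to 320 ± 92.1 CPM (SD, n = 4 each; log2 fold change 1.41, adjusted p = 0.0268). Of 5 further dendritic cell genes tested, 2 rose, the maturation marker gene Cd83 (1.48, adjusted p = 0.0122) and the tetherin gene Bst2 (1.76, adjusted p = 0.0490). With the length offset C1qa had 0.44 and lost the call (adjusted p = 0.0525). Irf8 had 1.31, Cd74 1.01, Cd83 1.39 and Bst2 1.07 with the offset, and all 4 still passed, with adjusted p values from 0.00791 to 0.0439. The T cell adhesion gene Cd2 rose as 1 of 7 tested further T cell genes (log2 fold change 3.01, adjusted p = 0.0120), from 1, 1, 4 and 5 counts in controls to 10, 28, 35 and 19 in NICD libraries. Il2rb, an interleukin 2 receptor chain, was the only tested further NK gene and rose (1.59, adjusted p = 0.0486). Mzb1, a chaperone of antibody-secreting cells, rose as 1 of 6 tested further B cell genes (2.70, adjusted p = 0.0176). Il2rb had 6 to 9 counts in controls and Mzb1 2 to 5. Cd2, Il2rb and Mzb1 thus reached the count minimum through the NICD libraries alone, so that they could differ in that direction only, and their calls support nothing about their lists. With the length offset Mzb1 lost its call (adjusted p = 0.0542). These lists are short, and 4.19% of all tested genes were called higher.

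Genes of granulocytes and of cells other than leukocytes were also counted. Of 10 β cell genes 3 fell, of 5 α cell genes 2 rose, and of 3 δ cell genes 1 rose. Of all tested genes 2.57% fell and 4.19% rose. None of 3 tested granulocyte and mast cell genes rose or fell, and 4 of the 9 listed, such as Ly6g, were at 3 counts or fewer in every library. None of the 20 acinar, 8 duct, 10 endothelial, 10 stellate and pericyte and 5 erythroid genes passed the threshold, and the median log2 fold change of the acinar genes was 0.47. The summed acinar level ran from 74694 to 146042 CPM in controls and from 62158 to 209031 CPM in NICD libraries, and the part of RNA from tissue around the islets in the marker values was not tested.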

How the data were processed

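Total RNA of islets from 4 controls and 4 β-tetO-NICD mice was made into TruSeq stranded mRNA libraries. Reads were assigned by the authors with Kallisto to transcripts of GRCm38 and summed by symbol, and the deposited table holds whole-number counts, not normalized. The submitters' processing notes also name bcl2fastq and limma. The Kallisto version, annotation and strand setting are not given in the sources used here. The authors' table of their own comparison, which holds log2 fold changes, mean expression, p values and related statistics, was not used. Columns were assigned to groups by name. Nothing in the labels says that same-numbered mice of the groups were paired, and p values measure the spread between these mice, 1 library each.

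Counts were fitted in R 4.3.3 with edgeR 4.0.16 (TMM, a minimum of 10 counts in 4 or more of 8 libraries, glmQLFit and glmQLFTest over all 15082 genes, Benjamini-Hochberg adjustment over all of them, threshold 0.05), and this test gave every adjusted p value for which no other is named. Fits were tested on simulated counts first. The length offset was a lowess curve (span 0.3) of each library's log2 deviation (prior count 2) on the longest basic transcript of GENCODE M21, found for 97.2% of tested genes. Summed levels are plain sums of CPM, with no test. The markers and comparison lists were chosen with earlier results of these data known. Values in every library are given for genes past the threshold, the 2 highest by CPM of each class, the 5 lowest p values and tested genes whose groups did not overlap. Csf1r, Adgre1, Aif1, Cd3g, Trbc2, Cd79b and the remaining genes shown in every library were added after their values were seen. Alternatives were DESeq2 1.42.0, limma-voom (limma 3.58.1), other normalizations and filters, covariates, a replicate block and leaving out each library.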

Additional observations from a re-analysis of the deposited data

Results flagged for a closer look

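In each gene and group, and in the summed level of each class, the gap between the most distant library and its nearest neighbour was divided by the range of the 4 libraries. This ratio passed Dixon's 95% limit in 11 of 98 groups of 4 libraries, where chance would give about 4.9, since it flags about 1 group in 20. Library 1 of the β-tetO-NICD group stood apart in 3 of these, all B cell or plasma cell genes. The ratio was 0.942 for Ms4a1 (65 counts against 3 to 6 in the other libraries of its group), 0.959 for Pax5 (17 against 0 to 1) and 0.954 for Jchain (334 against 3 to 19).

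Control 2 stood above the other controls for Lsp1 (ratio 0.868, 117 counts against 43 to 60) and for Flt3 (ratio 0.913, 39 against 10 to 13). Control 3 stood above them for Cd52 (ratio 0.895, 110 counts against 50 to 59), and control 4 for Cd68 (ratio 0.859, 115 against 71 to 77). Control 1 stood below the other controls for Spi1 (ratio 0.841, 33 counts against 50 to 51). Library 5 of the β-tetO-NICD group stood above the others in CPM for Fcgr3 (ratio 0.916, 5.89 CPM with the nearest at 4.97). For Gzmb the ratio was 1.0 in both groups, since control 3 with 1 count and library 5 of the β-tetO-NICD group with 5 counts were the only libraries above 0.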

How the results depend on the processing

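No marker was called lower in any of the 22 alternatives. The number called higher, 4 by edgeR, was 7 of 43 without the low-count filter (against 2.88% of all tested genes), 11 with DESeq2 (against 9.91%), and between 2 and 11 when each library was left out in turn (against 1.49% to 16.3%), with 11 without β-tetO-NICD library 1 and 2 or 3 without any other (against 1.49% to 3.6%). In fits chosen after seeing the data, it was 1 over the 5 libraries without Eif2s3y counts, against 0.611% of all tested genes, and 14 of 36 for controls 1, 2 and 4 against β-tetO-NICD libraries 2, 4 and 5, against 19.6%. The latter libraries were picked by their length trend, which was positive in each of those controls and negative in each of those β-tetO-NICD libraries. Of the 14, Cd3g, Trbc2 and Nkg7 reached the count minimum through those β-tetO-NICD libraries alone. The same libraries sufficed for Cd209a, which reached 10 counts in only control 2 of those controls. The 14 therefore support nothing. The fit without β-tetO-NICD library 1 kept the same β-tetO-NICD libraries. Replicate numbers 1 and 2 alone occur with certainty in both groups, and their deviations correlated at 0.28 and −0.09. With the replicate number as a block over those 4 libraries, 2 markers were called, against 1.88% of all tested genes, and 0 without the block, against 0.265%. The cause of these differences was not tested. Among the genes recomputed, 5 changed direction in some alternative. Apoe was −0.13 with the block and −0.12 without it over the 4 libraries. Mpeg1 was 0.058 with upper-quartile scaling, 0.17 and 0.13 with the length offset by basic or comprehensive transcripts, 0.029 with an Eif2s3y covariate, 0.011 with an acinar covariate, 0.19 over the 5 libraries, and −0.096 to 0.063 with 1 library left out. Clec9a was −0.60 with the block, −0.51 without it, −0.22 over the 5 libraries and −0.061 to 0.41 with 1 left out. Zbtb46 was 0.22 and 0.19 with the offsets and −0.23 to 0.025 with 1 left out, and Cd3d −0.037 and −0.071, and −0.17 to 0.78. As log2 ratios of group means, summed levels over longer members were 0.32 (pan-leukocyte), −0.013 (macrophage), 0.46 (T cell) and 1.34 (B cell, Pax5 alone), the shorter dendritic member Cd209a gave 1.64, and B cell genes without Cd79a gave 3.31. Both B cell values rest on β-tetO-NICD library 1, without which Pax5 had at most 1 count in a β-tetO-NICD library and the sum without Cd79a gave 1.16. Spearman's correlation between length and fold change over markers was 0.14 and 0.12 with the offsets and 0.0044 over the 5 libraries. Near the floor of 3 counts, depth limits the NK genes, Cd3e and Pax5.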
